A study of Mus musculus with 6 samples.

Results

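Eomes is a T-box transcription factor that natural killer (NK) cells, the cytotoxic innate lymphocytes, need to mature and to survive. The regions described here are the places inside genes, within introns that the deposited annotation does not number intron 1, where Eomes was found in at least 2 of 3 chromatin immunoprecipitation and sequencing (ChIP-seq) experiments. Peaks of the 3 lists that shared at least 1 bp were merged into 84399 regions, of which 20126 came from 2 or 3 lists and are called reproducible. Of these, 2740 (13.6%, 95% Wilson interval 13.1 to 14.1%) took an intron annotation other than intron 1 from their highest peak, and they are the members. They were thus selected on the peak calls themselves, their overlap between experiments and their pileup. The intervals given with shares cover counting error only.

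The cells were NK cells purified from pooled spleens of mice of the C57BL/6 strain, wild-type and 8 to 12 weeks old. All were cultured with IL-15, a survival and growth cytokine of NK cells, at 100 ng/mL for 4 days. Each of 3 experiments gave 1 library precipitated with an Abcam antibody to Eomes (IP) and 1 input library of the same kind of chromatin without precipitation, from fragments of 200 to 600 bp amplified for 15 cycles. There was no second genotype, treatment or time, and no cells lacking Eomes were among the samples, so the input is the only background. The files held peak lists and no expression values, so NK cell markers could not be checked against the label.

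Introns are the parts of a gene that are transcribed and then spliced out of the messenger RNA, and they often hold enhancers, the switches that act on a promoter from a distance. T-box factors recognise a short DNA element whose core reads AGGTGTGA. An enhancer in an intron may act on the gene it lies in or on a neighbour, and a peak list does not tell which.

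The label of later introns held only in part. In the deposited annotation the intron number rose with the genome coordinate on both strands. It rose in all 2903 steps between introns of 1462 transcripts of plus-strand genes, and in all 2703 steps of 1346 transcripts of minus-strand genes. Genes on the minus strand are read toward falling coordinates, so their last-numbered intron is the one transcribed first. Counted in the direction of transcription, 612 members (22.3%, 20.8 to 23.9%) lay in the first intron of the annotated transcript and 2076 (75.8%) in a later one. For the other 52 members the files paired no strand with the gene. The members are therefore called intron regions not numbered intron 1. For genes named by rank, by number of members or on a gene list, members in the intron transcribed first are pointed out. For other genes the place in transcription order is not given.

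Some members sat on transcription starts of the RefSeq annotation although the authors' annotation placed them more than 3000 bp from any start. RefSeq windows that reach from 250 bases upstream of a start to 50 bases downstream overlapped 22 members in 24 windows, and 13 windows held the summit of the member, its point of highest signal. The table of windows is not complete, so these counts are lower bounds. The upstream bases of 3 windows are shown here, read on the strand of the gene from RefSeq GRCm38.p6. Each whole window held the summit, as 13 windows did, and the 3 are picked examples. They are not a typical set, since they include the only 1 of the 24 windows with the T-box letters AGGTGTGA. Together they show the start of a predicted gene with the T-box element and alternative starts of protein-coding genes. Capitals mark the T-box letters AGGTGTGA, which read TCACACCT on this strand, in the first sequence, and each CG pair in the others.

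Gm4814, inside Cmya5, chr13:93073054-93073303, plus strand: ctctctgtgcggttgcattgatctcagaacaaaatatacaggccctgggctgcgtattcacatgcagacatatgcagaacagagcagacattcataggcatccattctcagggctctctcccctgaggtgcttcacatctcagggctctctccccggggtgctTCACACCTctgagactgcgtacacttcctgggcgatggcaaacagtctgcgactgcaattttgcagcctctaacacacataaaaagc

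Arhgef3, alternative start, chr14:27335787-27336036, plus strand: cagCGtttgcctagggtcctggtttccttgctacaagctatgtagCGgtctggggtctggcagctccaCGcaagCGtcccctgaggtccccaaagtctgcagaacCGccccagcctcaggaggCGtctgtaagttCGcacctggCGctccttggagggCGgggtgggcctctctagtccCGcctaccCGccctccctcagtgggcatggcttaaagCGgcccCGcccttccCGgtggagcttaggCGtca

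Cast, alternative start, chr13:74770737-74770986, minus strand: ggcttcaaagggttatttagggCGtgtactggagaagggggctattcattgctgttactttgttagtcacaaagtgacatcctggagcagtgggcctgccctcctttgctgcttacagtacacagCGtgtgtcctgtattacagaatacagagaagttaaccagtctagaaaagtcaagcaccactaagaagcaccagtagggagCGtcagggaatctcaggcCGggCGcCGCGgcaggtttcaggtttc

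The member at Gm4814, a predicted gene inside the muscle gene Cmya5, was found in experiment 2 with a fold of 6.46 and in experiment 3 with a fold of 4.52, and not in experiment 1. Its summit lay 88 bp upstream of the RefSeq start. The member in Arhgef3, which encodes a guanine nucleotide exchange factor, had folds of 5.38, 6.51 and 7.36 in experiments 1, 2 and 3. Its window held 15 CG pairs and 64.8% G and C, where the median window of the table held 6 pairs and 52.4%. The member in Cast, which encodes the calpain inhibitor calpastatin, had folds of 5.78, 6.03 and 4.96. Its summit lay 3 bp downstream of the RefSeq start, just outside the bases shown. Both strands of the 250 upstream bases were searched for exact letters. AGGTGTGA was found in 1 of the 24 windows and in 1.12% of all 32851 windows. The shorter core GGTGTGA, which the longer element contains, was found in 2 of 24 and in 3.33% of all. The RUNX letters TGTGGTT were in 2 of 24 (4.40% of all), the AP-1 letters TGANTCA in 2 of 24 (6.75%) and the ETS letters CCGGAAGT in 0 of 24 (2.88%). These matches describe the letters only. In all, 102 members (3.72%) had their summit within 3000 bp of a start in the table. The same held for only 72.7% of reproducible promoter regions. The table thus lacks starts that the authors' annotation holds, and the share of members is a lower bound.

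Fold, pileup and q-value are the authors' own values for each peak and come from the calls that chose the members, so they are described without a test. The fold is the deposited enrichment of IP over local background. Of merged intron regions not numbered intron 1, 15.3% were found in at least 2 lists, beside 17.6% of regions in intron 1, 38.1% of promoter regions and 23.8% of all merged regions. Of the members, 1241 (45.3%, 43.4 to 47.2%) were in all 3 lists, beside 49.7% of reproducible regions in intron 1, 55.4% at promoters, 45.6% between genes and 51.3% overall. A peak was present in experiment 1 in 2190 members, in experiment 2 in 2006 and in experiment 3 in 2525. The pairs were uneven, with 734 members in experiments 1 and 3 only, 550 in 2 and 3 only and 215 in 1 and 2 only. Experiment 3 had the longest list, with 46329 intervals against 37456 and 33841. When both of the other experiments had to hold a region, 1466 members were left without experiment 3 and 1787 without experiment 1.

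The median folds of the members lay close to those of promoter regions. The fold that 90% of regions did not exceed lay higher for members and for regions in intron 1, but the single highest folds did not in experiments 1 and 3. The median of the members was 4.80, 5.17 and 5.06 in experiments 1, 2 and 3. It was 4.55, 5.17 and 4.96 for promoter regions and 4.67, 5.17 and 5.28 for regions in intron 1. The fold that 90% of members did not exceed was 9.31, 9.70 and 10.5. It was 7.46, 8.61 and 8.94 for promoter regions and 8.87, 9.39 and 10.4 for regions in intron 1. The single highest fold in experiments 1 and 3 was 39.4 and 40.7 at promoter regions. It was 31.8 and 30.9 for members and 24.3 and 32.9 for regions in intron 1. In experiment 2 the highest fold was that of a member. Members in all 3 lists had medians of 5.73, 6.01 and 6.88, and members in 2 lists 4.19, 4.43 and 4.20. Intron regions of 1 list had 3.91, 4.31 and 3.86. The median pileup of the members, taken to be IP fragments over the summit, was 16, 13 and 21, and the smallest pileup in the lists was 8, 7 and 9. The sources used here give no library totals, and weaker binding was not detectable in these lists. In members of all 3 lists the 3 summits spanned a median of 38 bp, and 62.7% of them spanned at most 50 bp. The median length of a member was 335 bp. At the edge of the rule, a member in Zfp746, a zinc finger gene, joined peaks that overlapped by 1 bp, with folds of 3.91 in experiment 1 and 3.59 in experiment 3. A region in Arhgef18 just missed it, with a peak in experiment 1 only (fold 3.18) and 0 bp between it and the next interval. Starts in the lists may be shifted by 1 bp, and regions at this edge could then change sides. In 83 members the largest overlap was under 50 bp, and the median was 205 bp.

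Members on genes of the plus and minus strand lay in different places along the gene. Along the length of the RefSeq gene in the direction of transcription, the median summit lay at 61.6% on plus-strand genes (n = 1056 members with a position) and at 43.5% on minus-strand genes (n = 1451). The deposited number was the last of the transcript in 16.7% of members on the plus strand and in 39.6% on the minus strand. The minus strand held 1547 of 2688 members with a strand (57.6%). By the rule, members there include introns transcribed first and leave out those transcribed last. On the plus strand the rule does the reverse. Members in introns transcribed first had their median at 30.1% of the gene, and the others at 59.4%.

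**Figure D1:**
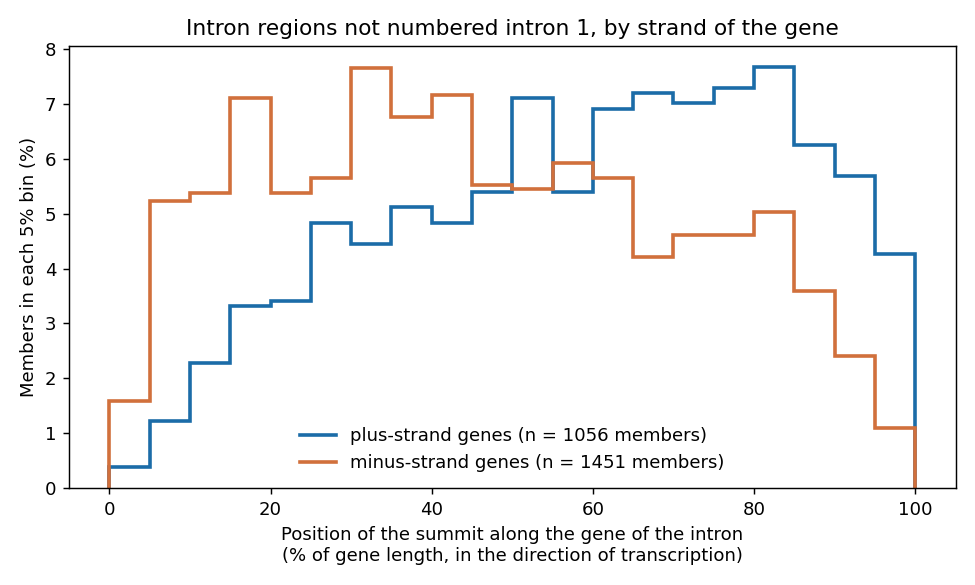
Position of member summits along the gene of the intron, in percent of gene length in the direction of transcription (x axis), as the share of members in each 5% bin (y axis), for 1056 members on plus-strand genes and 1451 on minus-strand genes. Members on the minus strand lie nearer the start of the gene, with a median of 43.5% against 61.6%. The rule leaves out introns transcribed first on the plus strand and those transcribed last on the minus strand.

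Recounted in transcription order, the members had lower intron numbers. The median deposited intron number was 6 and the median in transcription order was 3. The intron transcribed first held 22.8% of the 2688 members with a strand, the next one 24.3%, intron 3 12.9% and introns from 21 on 3.94%. By the rule these first introns belong to minus-strand genes only, so the 22.8% is not the share of first introns among intron regions. Over all 3446 reproducible intron regions with a strand, 1242 (36.0%) lay in the intron transcribed first and 2204 (64.0%) in later ones. By the deposited number, 75.8% of reproducible intron regions lay in later introns. By that order 49.8% of 1242 first-intron regions and 45.0% of 2204 later-intron regions were in all 3 lists, with intervals of 47.1 to 52.6% and 42.9 to 47.0%. The folds of the members differed little by this split. Their medians were 4.81, 5.12 and 5.09 in introns transcribed first and 4.80, 5.17 and 5.08 in later ones.

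**Figure D2:**
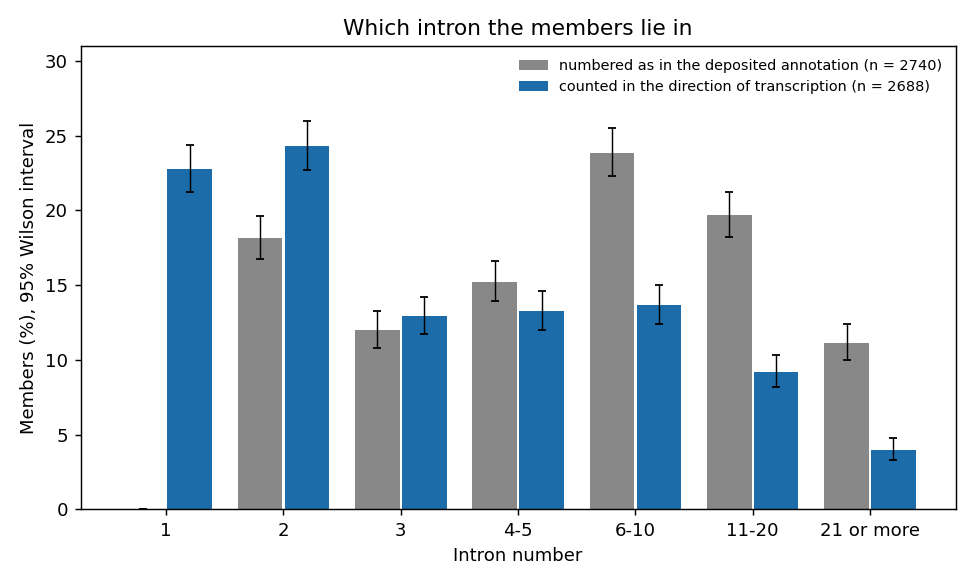
Share of members in each intron (y axis, with 95% Wilson intervals) by intron number (x axis), as numbered in the deposited annotation (2740 members) and as counted in the direction of transcription (2688 members). By the rule no member is numbered 1, yet 22.8% lie in the intron transcribed first, all of them on minus-strand genes.

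Strong and repeatable members lay in genes of many kinds. Members in all 3 lists were ranked by their lowest percentile of q-value within the 3 lists, and 10 of the highest-ranked are described. The member in Tmprss6 (chr15:78456906-78457955), a membrane protease gene that acts in iron balance, had 22.3, 23.8 and 24.3. The nearest other protein-coding gene was Kctd17, at 17603 bp, followed at 21301 bp by Il2rb, which encodes the beta chain of the IL-15 receptor. The member in the integrin gene Itgad (chr7:128180091-128180626) had 20.3, 20.6 and 18.7, and lay 24809 bp from Cox6a2 and 29434 bp from the integrin gene Itgax.

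The next members included transcriptional regulators. Foxo3, a forkhead factor of quiescence and stress responses, had folds of 29.8, 20.1 and 17.8 at a member in intron 2 of 3 (chr10:42269104-42269744). Prdm16, a zinc finger regulator known from brown fat and blood stem cells, had 20.2, 21.6 and 21.8. Ssbp3, which encodes a cofactor of LIM-domain transcription complexes, had 17.5, 21.3 and 16.8. The values of experiment 1 at Foxo3 and Gsap were higher than those of the other experiments, while Prdm16 and Itgad were even over the 3. Gsap, which encodes a protein that activates gamma-secretase, had 29.997, 17.0 and 20.5.

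The others were enzymes and protein regulators. Pde9a, a phosphodiesterase of cyclic GMP, had folds of 19.0, 22.8 and 17.9. Usp30, a deubiquitinase of mitochondria, had 20.02, 17.2 and 16.4. Fbxo40, an F-box gene best known from muscle, had 21.8, 16.9 and 15.2, in an intron transcribed first and 22369 bp from Hcls1, a gene of blood cells. Ago2, the Argonaute that cuts target RNA, had 20.8, 17.4 and 26.4, also in the intron transcribed first. The neighbours Il2rb, Itgax and Hcls1 were picked after the 3 nearest protein-coding genes of each of the 10 members had been seen. With introns counted in transcription order, 8 of the 10 stayed members, and those of Fbxo40 and Ago2 did not.

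**Figure D3:**
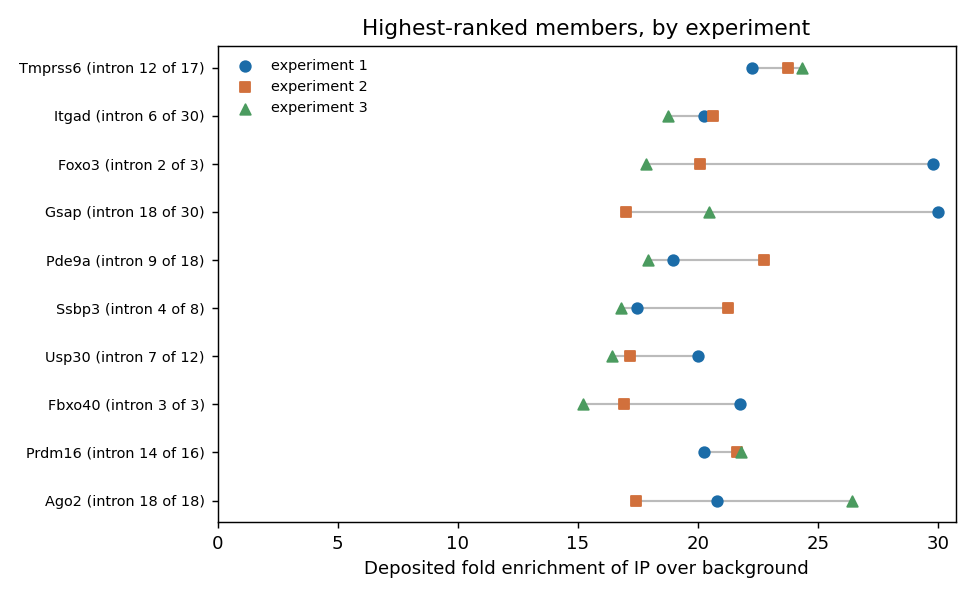
Deposited fold enrichment (x axis) in experiments 1, 2 and 3 (points, joined by a line over their range) for 10 of the highest-ranked members, named by gene and deposited intron number (y axis). The lowest value is 15.2 (Fbxo40, experiment 3) and the highest 29.997 (Gsap, experiment 1), and the order of the experiments differs from member to member.

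The members were spread over 1590 genes, of which 1052 held 1 member, 459 held 2 to 4 and 79 held at least 5. These 79 genes together held 541 of the 2740 members. Of 2033 introns with a member, 413 held at least 2, and the most in 1 intron was 10. Of 21900 protein-coding RefSeq genes, 1495 (6.83%) had a member inside. These host genes had a median length of 84013 bp, against 17146 bp for all. Of the same host genes, 944 (63.1%) also had a reproducible promoter region, beside 37.2% of all protein-coding genes. These 2 shares were not matched for gene length, and the host genes were chosen for holding a reproducible region. Without experiment 3 the genes with a member fell to 995.

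Prex1, which encodes an exchange factor for Rac in leukocyte migration, held the most members, 15, of which 8 were in all 3 lists. They spanned 67384 bp over 6 introns, and 7 lay in the intron transcribed first. Its strongest member (chr2:166625425-166625927) had folds of 15.2, 16.5 and 24.9, and the next (chr2:166610248-166610664) had 15.1, 11.4 and 15.8. Between them and around them stood members of low fold, such as one found in experiments 2 and 3 only with 3.56 and 3.35. Ago2 held 13, of which 10 were in the intron transcribed first, and 6 were in all 3 lists. Beside the leading Ago2 member, a neighbour at chr15:73148486-73148996 had 10.7, 14.0 and 7.68.

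Maml3, Zmiz1 and Arid1b encode regulators of transcription. Maml3, a coactivator of Notch signalling, held 12 members over 387368 bp, of which 7 were in all 3 lists and 3 lay in the intron transcribed first. None of the 12 was strong, and the highest folds were 6.40, 8.18 and 8.98. Zmiz1, a coregulator that also works with Notch, held 12, with a strongest member at 12.9, 16.4 and 15.2. Arid1b, a subunit of SWI/SNF chromatin remodellers, held 11, and all 11 were assigned by nearest start to another gene. The strongest in Arid1b (chr17:5163346-5163829) had 15.1, 12.4 and 19.9.

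Runx1, a runt-domain factor of blood cell development, held 11 members in 2 annotated introns, and 4 were in all 3 lists. The strongest by mean rank (chr16:92801451-92802055) had folds of 10.7, 15.8 and 15.5, one at chr16:92644573-92645173 had 8.45, 15.3 and 20.4, and one at chr16:92620750-92621419 had 9.11, 10.1 and 16.2. The other Runx1 member in all 3 lists had 6.15, 8.61 and 6.24. Sept9, a septin of the cytoskeleton, held 11, and its first member in the direction of transcription (chr11:117220434-117221211) had 19.2, 13.3 and 30.9, the highest fold of any member in experiment 3. The 7 genes differed in length. Members per 100 kb of RefSeq gene were 15.6 for Ago2, 10.2 for Prex1, 6.76 for Sept9 and 5.75 for Zmiz1. They were 4.90 for Runx1, 3.11 for Arid1b and 2.87 for Maml3, beside 1.25 summed over all host genes. Regions of 1 list in introns not numbered 1 numbered 10 in Ago2 and 25 to 31 in the others. The counts of members per gene depended on the lists used. Without experiment 3 they were 8 for Prex1, 5 for Ago2, 7 for Maml3 and 8 for Zmiz1. For Arid1b, Runx1 and Sept9 they were 7, 6 and 6. In the same order of genes, they were 12, 8, 10, 8, 7, 7 and 6 without experiment 2. Without experiment 1 they were 11, 11, 9, 9, 9, 6 and 9. Within all 3 lists the 7 genes had 4 to 8.

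**Figure D4:**
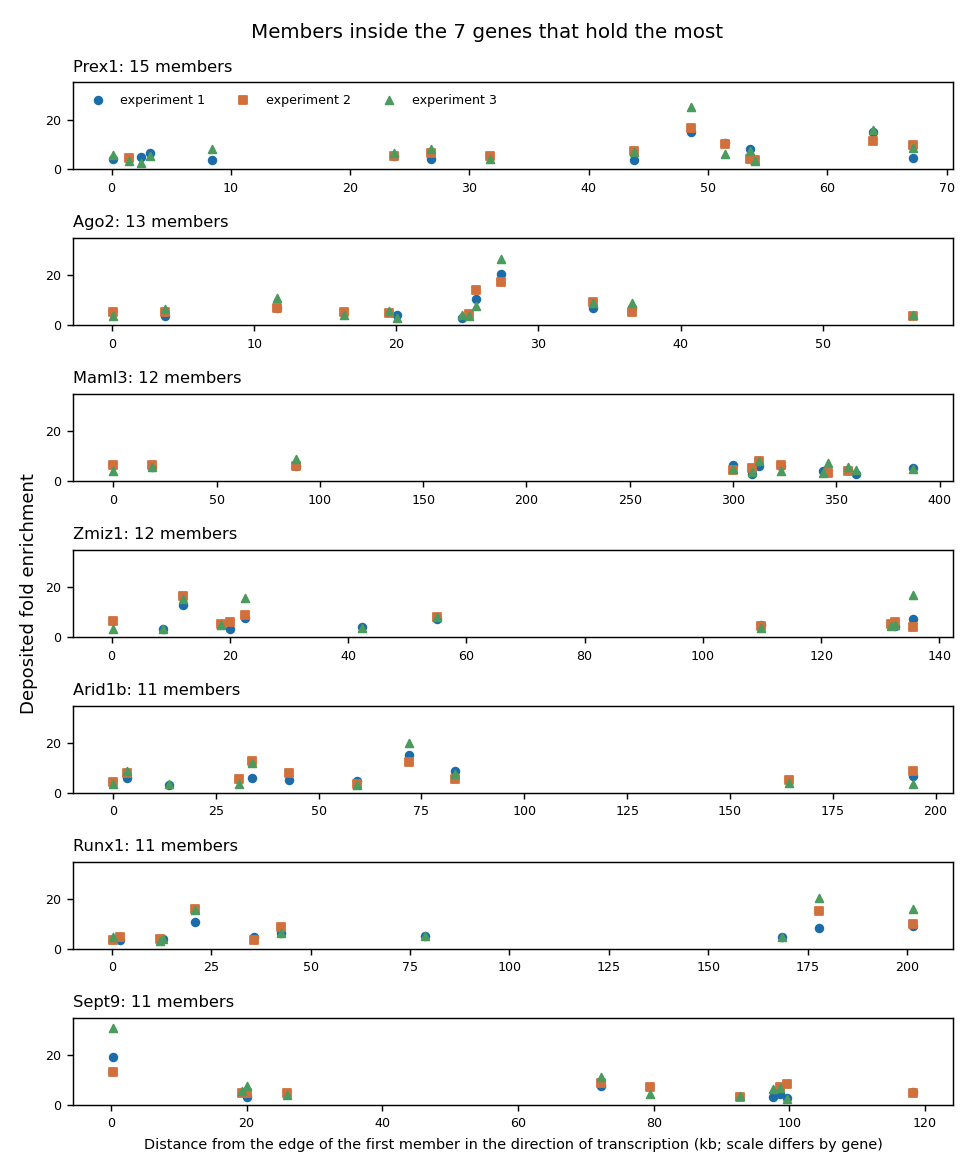
Deposited fold enrichment (y axis) of each member in experiments 1, 2 and 3 against its distance from the edge of the first member in the direction of transcription (x axis, kb, scale differs by gene) for the 7 genes with the most members. Most points lie at low folds. The highest point of Maml3 is 8.98, and that of Sept9 is 30.9, in experiment 3.

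By the nearest start, many members were assigned to a gene other than the one they lay in. This held for 970 members (35.4%, 33.6 to 37.2%), beside 34.2% of reproducible regions in intron 1. Of the 970, the nearest gene was protein-coding in RefSeq for 331 (34.1%), and for 608 (62.7%) it had a predicted-gene, Rik or microRNA name or no symbol. The share was 19.6% (16.7 to 22.9%) for members in introns transcribed first and 38.4% (36.4 to 40.6%) for those in later ones. The median distance to the nearest start was 14666.5 bp, with quartiles of 7242 and 29716.5 bp. It was 10518 bp in introns transcribed first and 16420 bp in later ones.

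Genes of NK cell function were counted as having a member inside an intron or nearest by start. Of all protein-coding genes 1709 (7.8%) did, and the share rose with gene length. It was 1.10% of genes under 10000 bp, 4.52% from 10000 to 30000 bp, 13.4% from 30000 to 100000 bp and 26.8% of longer ones. Each list is therefore also given for its genes of at least 30000 bp, of which 17.7% of all protein-coding genes had a member. No list was tested.

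Transcription factors of NK cells and other innate lymphoid cells had a member at 21 of 39 genes (53.8%), and at 17 of the 26 long ones. Besides Runx1, Lef1, a factor of the TCF family, held 8 members, of which 5 were in all 3 lists, with highest folds of 10.9, 13.9 and 13.6 in experiments 1, 2 and 3. Nfatc1, a calcium-dependent factor, held 6, and its strongest had 14.7, 14.7 and 14.2. Its relative Nfatc2 held 5, with highest folds of 5.78, 6.03 and 7.69. Of these, 1 Nfatc1 member and 2 Nfatc2 members lay in the intron transcribed first. Ikzf1, which encodes Ikaros, held 4, all in 3 lists, and its strongest (chr11:11715960-11716364) had 13.0, 14.2 and 19.0. Bach2, a repressor that restrains effector programmes, held 4, with highest folds of 8.17, 7.90 and 6.11. Runx3, the runt-domain factor of cytotoxic lymphocytes, held 3, with highest folds of 9.95, 12.4 and 6.24. Klf2, a factor of quiescence and trafficking, held none inside, but 3 members in an intron of its neighbour Eps15l1 were nearest to it, with highest folds of 5.76, 8.18 and 9.38. Eomes itself, Tbx21, Id2, Nfil3 and Tox had 0 members each. In members of all 3 lists the count was 14 of 39.

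Genes of signalling next to activating receptors had a member at 15 of 36 (41.7%), and at 14 of the 27 long ones. Grap2, which encodes the adaptor GADS, held 2 strong members. The one at chr15:80639061-80639524 had folds of 17.2, 20.5 and 11.04, and the one at chr15:80634841-80635338 had 14.2, 16.4 and 14.0. Prkch, a protein kinase C, held 4, and its strongest (chr12:73656750-73657203) had 11.1, 25.2 and 18.4, low in experiment 1 against the other experiments. Inpp5d, which encodes the inhibitory lipid phosphatase SHIP1, held 5 in 1 intron, and its leading member had 8.88, 6.88 and 11.2. Pik3ap1, an adaptor for PI3 kinase, also held 5, with highest folds of 8.86, 9.91 and 13.8. The kinase Fyn and the PI3 kinase subunit Pik3r1 held 3 each.

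Among cytokine receptors and their signalling genes, 8 of 36 (22.2%) had a member, and 5 of the 19 long ones. Smad3, which carries the TGF-beta signal into the nucleus, held 10, all in the single intron that is transcribed first although numbered 8 of 8, and 9 were in all 3 lists. The leading Smad3 member (chr9:63719760-63720521) had folds of 10.3, 13.8 and 20.4. The next (chr9:63722013-63722775) had 11.3, 13.3 and 17.5. Smad7, the inhibitor of the same pathway, held 3, with highest folds of 4.52, 6.46 and 4.41. The receptor gene Tgfbr2 held 2, neither in all 3 lists, and 1 lay in the intron transcribed first. Jak1 and Stat5b, a kinase and a factor downstream of the IL-15 receptor, held 2 each. Both Stat5b members and 1 of the Jak1 members lay in the intron transcribed first. With introns counted in transcription order the list had 6 genes with a member.

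In the cytotoxic machinery 4 of 22 genes (18.2%) had a member, and 2 of the 4 long ones. Ctsd, which encodes the lysosomal protease cathepsin D, had the strongest (chr7:142378993-142379615), with folds of 21.3, 19.4 and 23.3. Gzma, which encodes granzyme A, was the nearest start of 2 members inside the last intron of its neighbour Cdc20b, and the stronger (chr13:113090433-113091202) had 9.37, 13.4 and 19.2. Rab27a, a GTPase of granule docking, had 3.21, 4.41 and 9.61, and Lyst, which sizes lysosomes, had 5.33 in experiment 1 and 3.33 in experiment 3. Of 37 NK receptor and adaptor genes, 2 (5.41%) had a member, and 1 of the 7 long ones. The receptor Crtam had 4.28, 5.97 and 7.84. The checkpoint receptor Pdcd1 had 4.72 and 4.22 in experiments 1 and 2, in the intron transcribed first. None of 15 cytokine and chemokine genes had one, and 0 of them reached 30000 bp. Migration and adhesion genes had one at 7 of 26 (26.9%), led by the integrin gene Itgb7 (9.45, 19.0 and 10.5), and at 3 of the 10 long ones. Without experiment 3 this list had 3 genes with a member, and without experiment 1 it had 4.

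Cell cycle and survival genes had a member at 3 of 22, and at 2 of the 6 long ones. Cdk6, a kinase of cell cycle entry, held 5, with highest folds of 6.04, 7.59 and 10.98, and the death gene Bcl2l11, which encodes BIM, held 2, the stronger with 12.3, 10.4 and 10.6. Lists for other cells were counted in the same way. T cell genes had a member at 0 of 17, B cell genes at 2 of 14 (Bcl6 and Blk), myeloid genes at 2 of 17 (Itgax, and Cebpb as the nearest start of a member in Tmem189), and liver and neuronal genes at 2 of 20 (Rbfox3 and Ttr). Among their long genes, the counts were 0 of 6 for T cell genes, 1 of 6 for B cell genes, 0 of 3 for myeloid genes and 1 of 12 for liver and neuronal genes. Neither the Rbfox3 nor the Ttr member was in all 3 lists, and the Cebpb one had 8.31, 6.95 and 15.5. Both Bcl6 members and the Cebpb one lay in the intron transcribed first.

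**Figure D5:**
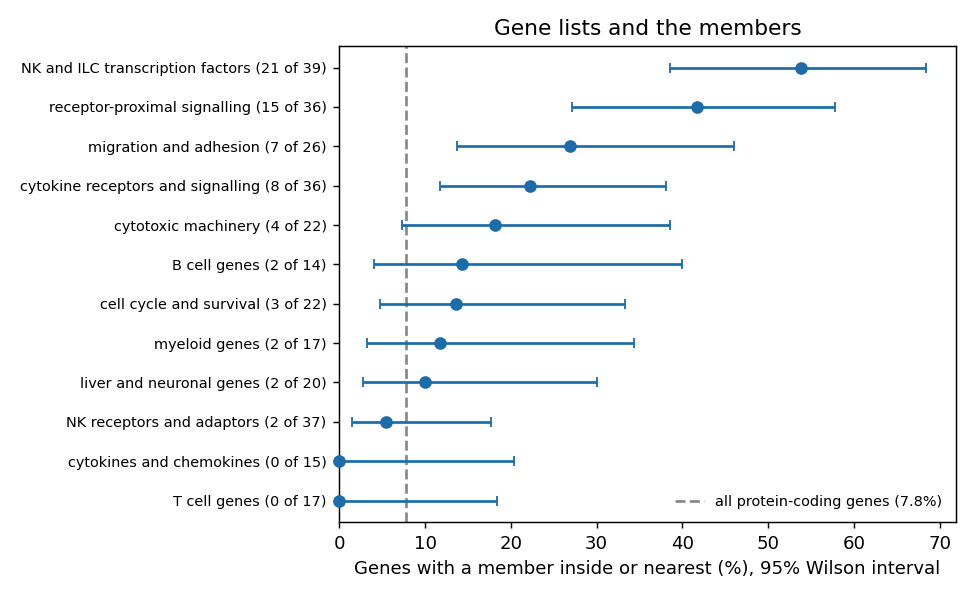
Share of the genes of each list with a member inside an intron or nearest by start (x axis, percent, points with 95% Wilson intervals), with the number of genes beside each list name (y axis) and the share of all protein-coding genes as a dashed line at 7.8%. Transcription factors (53.8%) and receptor-proximal signalling (41.7%) have the highest shares, and the list genes also differ in length.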

How the data were processed

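The authors deposited 1 annotated peak list per experiment, on mm10. The submitters' processing notes name Novoalign and ChIPseeker without versions. No source used here names the peak caller. In the deposited lists each peak has a pileup signal at its summit, a fold (ratio) of IP over background, and a −log10 p and −log10 q. Sub-peaks of 1 interval were collapsed, and intervals of the 3 lists sharing at least 1 bp were merged in Python 3.11.15 with pandas 2.3.3. Merging matched bedtools 2.31.1 and, tested on simulated data, 5000 of 5000 regions. A region takes annotation and nearest start from its row with the largest pileup. Strand and symbol came from the files, and matched the RefSeq strand in 99.99% of 13400 genes. The background of a peak is (pileup + 1) / fold − 1.

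The members and the 12 gene lists were chosen with earlier results of these data known. Named are the 12 members with the highest lowest percentile of −log10 q, up to 4 per list by mean percentile, the 5 genes with the most members (7 with ties), and regions beside the overlap threshold. Of the 12, 2 are not reported here. Other list genes are named with counts and highest folds, chosen after their values were seen. Highest folds of a gene can come from different members. No p-values were computed. Motif shares at summits were not run, since no mm10 genome was used here. Alternatives are in the closing section.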

Additional observations from a re-analysis of the deposited data

How the results depend on the processing

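No paired analysis was possible because each list joins an IP with its input and no test was fitted. The T-box motif shares at summits, and their alternatives, were not run. The number of members was 1753 with a fold of at least 4, 1241 in all 3 lists, and 1466 to 1974 without each experiment in turn, where both remaining lists had to hold a region. The share in all 3 lists was 48.3% where another list had to cover at least 50% of an interval, 51.2% at a −log10 q of at least 3 and 50.1% at a fold of at least 4. The share of reproducible intron regions not numbered intron 1 was 74.0% in all 3 lists, 74.3 to 75.3% without each experiment, and 64.0% with introns counted in the direction of transcription. Genes with a member numbered 850 in all 3 lists and 995 to 1224 without each experiment. The share assigned to another gene than that of the intron was 38.9% with introns in transcription order. At a −log10 q of at least 3, a fold of at least 4 and all 3 lists, the median fold was 5.49, 5.81 and 5.73 in experiment 1, 5.91, 5.95 and 6.01 in experiment 2, and 5.95, 6.33 and 6.88 in experiment 3. Without each experiment it was 4.97 to 5.32, 5.27 to 5.60 and 5.52 to 5.60. Stricter peaks and fewer lists leave fewer regions by construction. Comparisons with promoter regions were not rerun under these settings. Leaving out regions of high background, leaving out regions near a RefSeq start and counting introns in transcription order were chosen after seeing the data, and the first 2 moved none of these values by more than the set limits. In the alternatives, counts of list genes stayed within 1.5 times in 136 cases and moved further in 20. The 136 include all cases of the cytokine and T cell lists, which had 0 genes in every setting. Counts of members inside the genes with the most members stayed in 66 cases and moved further in 25. Pileup floors of 8, 7 and 9 fragments limit what the lists can show.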

Other observations

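A set of 23 members (0.839%) had a local background above 5 times the lowest of its list in at least 1 experiment. The same held for 0.614% of reproducible promoter regions, 1.14% of regions in intron 1 and 2.53% of intergenic regions. The lowest was 1.82, 1.32 and 2.33 fragments in experiments 1, 2 and 3. Erdr1 held 6 of them, all on chromosome Y, Tmem267 held 5, the midline gene Mid1 on chromosome X held 3, and Atrnl1 held 2. The member in Cdk8, a kinase of the Mediator complex, had the highest pileup of all members in every experiment (157, 134 and 195 fragments), with a background of 64.9, 41.7 and 87.5 and folds of only 2.40, 3.16 and 2.22. Another in Tmem267 had pileups of 64, 44 and 67 and folds of 2.45, 4.27 and 2.84. Chromosome Y held 8 of the 2740 members and 14 of all 20126 reproducible regions. The part of repeated sequence in these values was not tested.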
